A study of Mus musculus with 8 samples.

Results

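Heterotrimeric G proteins relay signals from receptors that cross the membrane, and each consists of an alpha subunit and a tightly bound pair of a beta and a gamma subunit. After receptor activation the beta-gamma pair separates from the alpha subunit and acts on its own targets, among them phosphoinositide 3-kinase gamma, phospholipase C beta, adenylyl cyclases and potassium channels. In B cells, chemokine and sphingosine-1-phosphate receptors that guide positioning in lymphoid tissue signal through such G proteins. The results below concern 10 genes of this family, the gamma subunit genes Gng13, Gng2, Gng5, Gng7, Gng10, Gng11 and Gng12 and the beta subunit genes Gnb1, Gnb2 and Gnb4. They were identified by gene symbol in the platform annotation and account for 20 of the 33709 array features with a listed gene, and for 10 of 19087 genes. The genes were chosen by a reading of the lymphoma and wild type differences in these same arrays, in which Gng13 stood out. Their differences are therefore given as a description, without a p value, and the tests below concern other genes and contrasts. The lists of other genes were also chosen with earlier results of these data known. Their p values for lymphoma against wild type are therefore not independent of these arrays.

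RNA was prepared from B splenocytes, which are spleen B cells. The controls were 4 wild type mice, and the lymphoma group was 4 mice labelled c-myc/Cdk4(R24C) lymphoma, which combine c-myc with the R24C form of the cell cycle kinase Cdk4. All 8 mice are labelled with the strain C57BL/6, and each gave 1 array. The sources used here do not say how c-myc was introduced, how old the mice were or how pure the B cells were. Values are log2 intensities of the Cy3 dye, scaled to the 75th percentile of the array. With n = 4 in either group, precision is limited by how few arrays there are. An array feature counts as above background where it exceeds the 95th percentile of 1113 olfactory and vomeronasal receptor features on its array, a bound between 7.17 and 7.45. Levels of different features are not comparable with each other, so that each gene is set only against itself across arrays. The summed intensities of marker lists add features on the linear scale, so that the brightest markers weigh most. Such a sum is compared only between arrays.

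Across all genes the array of wild type 1 lay near the lymphomas, its mean correlation across features being 0.963 to lymphoma arrays and 0.941 to the remaining controls. Wild type 2 stood apart on the second principal component (75.04 against -55.5 to 16.9 for the other arrays). The arrays numbered 1 and 2 of both groups are taken to share slide 1, and those numbered 3 and 4 slide 2, because their titles begin with the same number, while the labels do not use the word slide. In limma 398 of 19087 genes had an adjusted p under 0.05 (2.09%), 156 of them higher (0.817%) and 242 lower (1.27%) in lymphoma, and with the values as deposited the split was 116 and 301. The B cell markers Ms4a1, Cd79a, Cd79b, Pax5, Blnk, Cd22 and Ebf1, 7 of the 8 on the list, were above background on all 8 arrays, and none passed the test. Their summed intensity lay between 17.06 and 17.69 (log2) in wild type and between 17.35 and 17.84 in lymphoma, but Ms4a1, Cd79b and Blnk, the brightest of them, were near the top of the intensity range on 5, 7 and 7 arrays. Cd22, Cd79a, Pax5 and Ebf1 were not near it on any array. Of these Cd22 differed by -1.03 ± 0.27 without overlap of the groups (adjusted p 0.0854 in limma). The groups overlapped for Cd79a (0.09 ± 0.28), Pax5 (-0.60 ± 0.36) and Ebf1 (-0.35 ± 0.41), with adjusted p values of 0.914, 0.478 and 0.749 in limma. Macrophage markers were also present, with 9 of 10 above background on all arrays. Of these 10, 6 were lower in lymphoma (C1qa, C1qb, Fcgr1, Lyz2, Mpeg1 and Vcam1), while Itgam was higher by 1.22 ± 0.34 without overlap and did not pass (adjusted p 0.105 in limma). The summed intensity of the list was 15.19 to 16.03 in wild type and 14.16 to 14.63 in lymphoma. Among 7 granulocyte markers S100a8 was lower, and their sum was 12.87 to 14.17 against 10.82 to 12.42. None of 8 T cell, 6 NK cell, 6 dendritic, 6 erythroid, 9 megakaryocyte and platelet, 10 endothelial or 9 stromal markers passed. A lower number of cells of a type and less RNA per cell cannot be told apart in such samples.

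The promoters of Gng13 are shown because this gene had the widest difference of the family. RefSeq lists 2 start sites for it, and each window holds 250 bases before and 50 after the start on the plus strand of the GRCm38.p6 build. Capitals mark the GC box GGGCGG or its reverse complement, where neighbouring boxes may overlap.
Gng13, first start, chr17:25716922-25717221: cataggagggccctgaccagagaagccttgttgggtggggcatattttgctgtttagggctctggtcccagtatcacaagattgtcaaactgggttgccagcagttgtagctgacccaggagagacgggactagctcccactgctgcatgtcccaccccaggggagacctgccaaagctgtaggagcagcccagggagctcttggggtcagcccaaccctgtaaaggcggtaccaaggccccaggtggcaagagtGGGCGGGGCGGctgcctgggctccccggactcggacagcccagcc
Gng13, second start, chr17:25717278-25717577: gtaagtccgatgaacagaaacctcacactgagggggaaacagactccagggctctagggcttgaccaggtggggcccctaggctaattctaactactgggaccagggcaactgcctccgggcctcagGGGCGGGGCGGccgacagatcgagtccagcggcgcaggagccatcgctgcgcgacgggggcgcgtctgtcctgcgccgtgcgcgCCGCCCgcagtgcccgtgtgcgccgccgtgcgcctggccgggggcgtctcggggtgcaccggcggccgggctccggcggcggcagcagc
The hexamer CACGTG, the E-box bound by MYC with MAX, was searched because the lymphoma mice carry c-myc, and it occurred in neither window. Promoter windows were found for 8 of the 10 genes, 11 windows in all. CACGTG was present in 1 of the 11, and in 7.15% of all 32851 mouse promoter windows. That window belongs to Gng7, chr10:81001316-81001615 on the minus strand, with the hexamer 40 bases after the start (capitals).
Gng7, the start with CACGTG: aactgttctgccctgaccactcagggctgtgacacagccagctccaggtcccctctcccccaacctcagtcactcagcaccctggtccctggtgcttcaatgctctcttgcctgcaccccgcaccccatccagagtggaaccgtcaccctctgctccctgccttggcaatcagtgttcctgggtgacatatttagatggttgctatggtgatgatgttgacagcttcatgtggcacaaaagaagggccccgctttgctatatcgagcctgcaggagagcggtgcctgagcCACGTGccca
A GC box on either strand was present in 8 of the 11 windows and in 35.7% of all windows. These are matches of letters, and binding was not measured.

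Gng13 encodes a gamma subunit first studied in rodent taste receptor cells, where it pairs with the beta subunit encoded by Gnb3, and it is also found in bipolar cells of the retina. Its 1 feature read 8.91, 7.21, 6.77 and 6.58 in wild type 1 to 4 and 11.54, 12.12, 10.44 and 11.47 in lymphoma 1 to 4. Every lymphoma value lay above every control value. In wild type 2, 3 and 4 the signal was at background, and in wild type 1 it was above background. The means were 7.37 ± 1.06 in wild type and 11.39 ± 0.70 in lymphoma (SD, n = 4), a log2 difference of 4.03 ± 0.49 (SE). Without wild type 1 all controls were at background, and Gng13 was at least 16.8-fold higher in lymphoma, set against the background bound. The log2 difference was 3.77 within slide 1 and 4.28 within slide 2, and 3.76 to 4.54 as each array was left out in turn. It was the only one of the 10 genes past the threshold, against 2.09% of all genes, and since this contrast chose the genes nothing is read from that count.

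Gnb3, the beta subunit that partners the product of Gng13 in taste cells, was not among the 10 genes and was measured in a list of 7 other beta and gamma subunit genes. That list was chosen with earlier results of these data known. Gnb3 read 7.95, 6.84, 6.25 and 7.12 in wild type 1 to 4 and 11.04, 10.39, 10.05 and 10.05 in lymphoma 1 to 4. As for Gng13, the groups did not overlap, the signal was at background in wild type 2, 3 and 4, and wild type 1 was the highest control. The means were 7.04 ± 0.71 and 10.38 ± 0.47 (SD, n = 4). Gnb3 rose by 3.34 ± 0.35 on the log2 scale (adjusted p 0.00304 in limma, over 33709 features). Against the background bound and without wild type 1, it was at least 8.36-fold higher. Its difference was 3.32 within slide 1 and 3.37 within slide 2, where slide 1 alone gave an adjusted p of 0.708 and 0 calls among all genes in limma, with 1090 genes at an unadjusted p under 0.05. In the 8 fits that left out 1 array its difference ran from 3.08 to 3.65, with adjusted p values from 7.89e-05 to 0.0191 in limma. The rise of Gnb3 stood beside lower macrophage and granulocyte markers in the same arrays, and their part in it was not tested. The T cell marker Cd8b1, picked out after its values were seen, read 13.27 in wild type 1, 8.26 to 8.59 in the other controls and 11.70 to 12.88 in lymphoma. Its difference was 2.67 ± 0.91 (adjusted p 0.188 in limma), and 3.88 without wild type 1. Of the other 7 T cell markers none passed, and their differences ran from -0.84 (Cd3g) to 0.39 (Cd4), with Cd3e above background on 1 control array alone and Cd4 on none. In wild type 1 Cd3g read 10.65 and Cd3d 9.71, with means of 8.43 and 8.76 in the other controls. Without wild type 1 the Cd3g difference was -0.28. Lat and Cd28 were lower in wild type 1, at 8.03 and 6.95, with means of 8.95 and 7.91 in the other controls. Cd8a was at background in wild type 1, at 6.34. The median of wild type 1 minus the other controls over the list was -0.03. Over the 8 T cell markers the median difference was -0.25, and 2 were higher in lymphoma. The summed intensity of the list was 13.67 in wild type 1, at most 11.43 in the other controls and 12.27 to 13.12 in lymphoma (log2). Cd8b1 made up most of this sum in wild type 1 and in the lymphomas. The part of T cells in the values of Gng13 and Gnb3 was not tested.

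Likeness between genes was measured as the root mean square difference of their profiles over the 8 arrays, each centred on its own mean. Among 19086 other genes, Gnb3 had a distance from Gng13 that ranked 4 from the smallest, at 0.66 log2 units. The other 4 of the nearest 5 were Chst7 (0.57), which encodes a sulfotransferase, Echdc3 (0.59), Eml1 (0.59), which encodes a microtubule-associated protein, and Atp6v1c2 (0.68), a subunit of the vacuolar proton pump. All 5 rose in lymphoma, by 3.21 to 3.87 on the log2 scale, and in all 5 wild type 1 was the highest control. Chst7 and Echdc3 were above background in all 4 controls, Atp6v1c2 in 2 and Eml1 in 1. The measure takes in all 8 arrays, wild type 1 included. A near gene is therefore one with a similar rise and a similar place of wild type 1 among the controls.

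**Figure D1:**
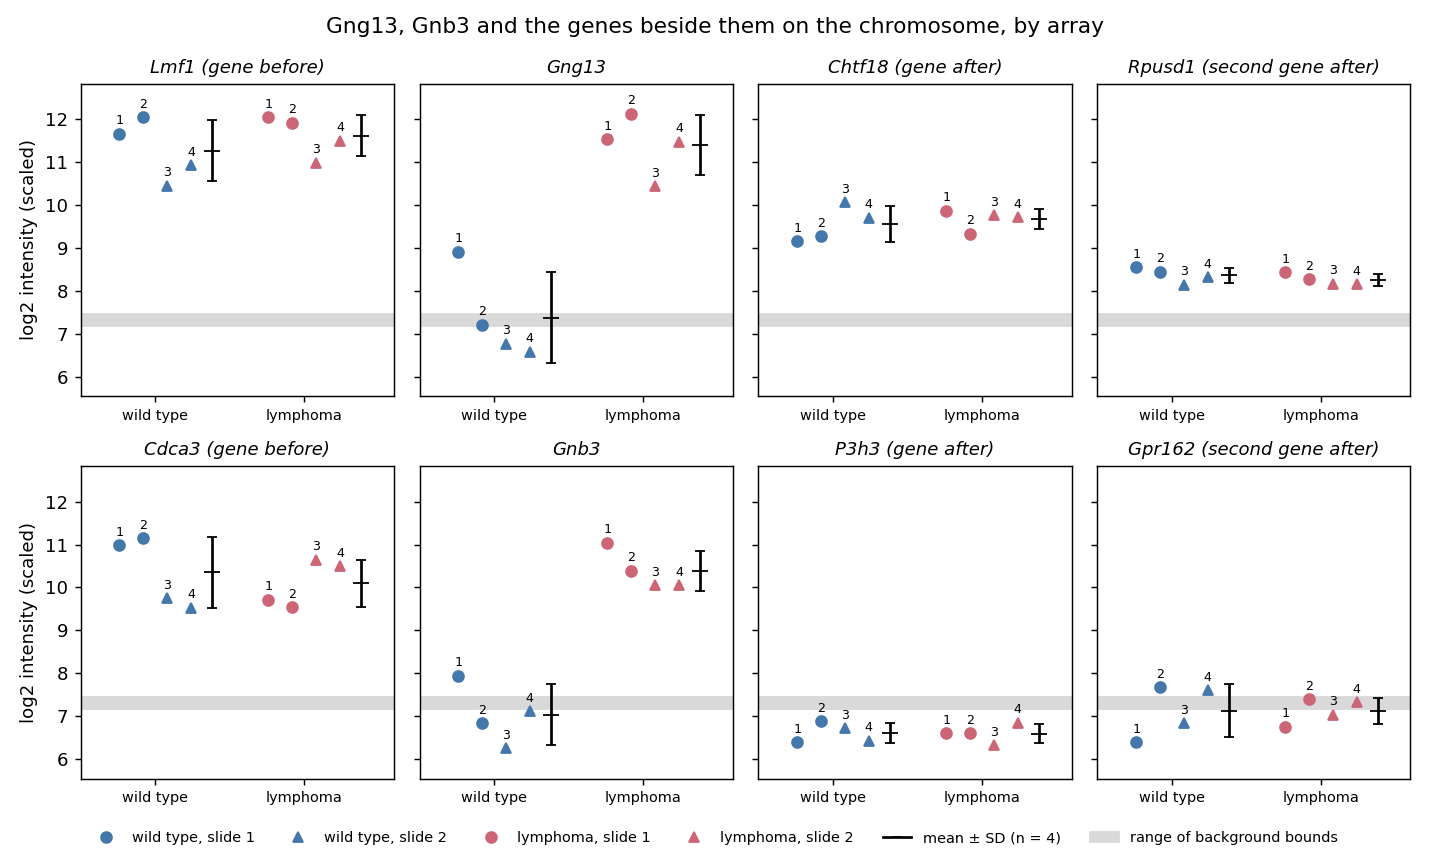
Log2 intensity (y axis) of Gng13 (top) and Gnb3 (bottom) beside genes next to them on the chromosome, with 1 point per array, numbered by mouse. Bars give the mean ± SD of 4 arrays, and the grey band is the range of background bounds. The 4 lymphoma points of Gng13 and of Gnb3 lie above all control points, while the groups overlap for each of the 6 neighbours.

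The genes beside Gng13 and Gnb3 were examined after these values were seen. Gng13 lies on chromosome 17, and its annotated end overlaps that of Chtf18, a gene of sister chromatid cohesion, by 73 bases. The feature of Chtf18 differed by 0.12 ± 0.25 (log2, adjusted p 0.875 in limma), with 9.55 ± 0.42 in wild type and 9.66 ± 0.24 in lymphoma (SD, n = 4). The other neighbours of Gng13 were Lmf1 (0.34 ± 0.36), Sox8 (-0.11 ± 0.26) and Rpusd1 (-0.11 ± 0.20), with Sox8 at background on all arrays. Beside Gnb3 on chromosome 6, the mitotic gene Cdca3 differed by -0.25 ± 0.40, and Usp5, P3h3 and Gpr162 by -0.15, -0.02 and 0.00. None of these 8 genes passed, with adjusted p values from 0.712 to 1.00 in limma. The Cdca3 difference changed sign between the slides, from -1.43 within slide 1 to 0.93 within slide 2 (interaction 2.37 ± 0.36, adjusted p 0.219 in limma).

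The other gamma subunits gave much smaller differences. Gng2, a gamma subunit of blood cells, read 13.33, 14.17, 13.19 and 13.23 in wild type and 13.03, 13.14, 13.07 and 13.14 in lymphoma by its brightest feature. The lymphomas lay within a narrow range just under the lowest control, and wild type 2 was far above the other controls. Its difference was -0.39 ± 0.25, and without wild type 2 it was -0.16. The second Gng2 feature went the other way, by 0.56 ± 0.27, with 10.76 ± 0.39 in wild type and 11.32 ± 0.41 in lymphoma. The mean of both features differed by 0.09, so that no direction can be given for Gng2.

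Gng5 encodes a widely expressed gamma subunit. Its brightest feature was 15.35, 14.17, 15.27 and 15.25 in wild type and 15.35, 15.34, 15.24 and 15.35 in lymphoma, where 7 of the 8 arrays agreed closely and wild type 2 was low. This feature was near the top of the intensity range on 1 array. The difference was 0.31 ± 0.27, and 0.03 without wild type 2. A second Gng5 feature read 12.94, 13.80, 12.14 and 12.09 in wild type and 12.54, 12.74, 13.71 and 13.86 in lymphoma. The lymphomas were lower than the controls on slide 1 (difference -0.73) and higher on slide 2 (1.67). The third Gng5 feature was at background on every array.

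Gng10, another widely expressed gamma subunit, read 13.41, 12.97, 13.41 and 13.01 in wild type and 12.64, 13.63, 12.87 and 13.07 in lymphoma. Its groups overlapped, and the difference was -0.15 ± 0.25. Gng12, a gamma subunit common in non-neuronal tissues, read 10.44, 8.23, 9.56 and 9.50 in wild type and 9.46, 10.18, 9.71 and 10.36 in lymphoma. Wild type 1 was the highest and wild type 2 the lowest of the 8 arrays, and the difference of 0.49 ± 0.40 became 0.83 without wild type 1 and 0.09 without wild type 2. The second Gng12 feature differed by 0.18 ± 0.30.

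Gng11, known from platelets and vessel walls, lay at the edge of background. It read 7.55, 7.98, 7.44 and 7.46 in wild type, above background on all 4 arrays, and 6.81, 7.26, 7.28 and 7.38 in lymphoma, above background on 2. The groups did not overlap, and the difference was -0.43 ± 0.22. Within slide 1 it was -0.74 and within slide 2 -0.12. Of 9 megakaryocyte and platelet markers, Pf4, Ppbp, Itga2b, Gp5 and Treml1 were at background on every array and Itgb3 was above it on all. Itgb3 differed by -0.78 ± 0.22 without overlap of the groups (adjusted p 0.113 in limma). Vwf and Clec1b, above background on most arrays, overlapped and differed by -0.24 ± 0.21 and 0.03 ± 0.52. Of the 9 markers 3 were higher in lymphoma, with a median of -0.10. The summed intensity of the list was 10.37 to 10.99 in wild type and 10.27 to 10.50 in lymphoma (log2). The endothelial list had Cdh5, Kdr, Tie1, Tek and Emcn at background on every array. Pecam1, above background on all, differed by -0.65 ± 0.21, also without overlap (adjusted p 0.163 in limma). Stab2, also above background on all, overlapped and differed by -0.44 ± 0.32. Egfl7, above background in 2 controls and 4 lymphomas, went the other way by 0.49 ± 0.31. Of the 10 endothelial markers 7 were higher in lymphoma, with a median of 0.04. The sum of the list was 10.97 to 11.29 against 10.77 to 10.90. The part of either list in the Gng11 values was not tested. The 5 genes with profiles nearest to Gng11 were Fam83f, Sugt1, Ptpn18, Twf1 and Lage3, at distances of 0.09 to 0.12, and none of them passed the test (adjusted p 0.326 to 0.672 in limma). Gng7, a gamma subunit of the striatum, was at background on all 8 arrays by both of its features. These spanned 6.01 to 7.29, and no difference was detectable.

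**Figure D2:**
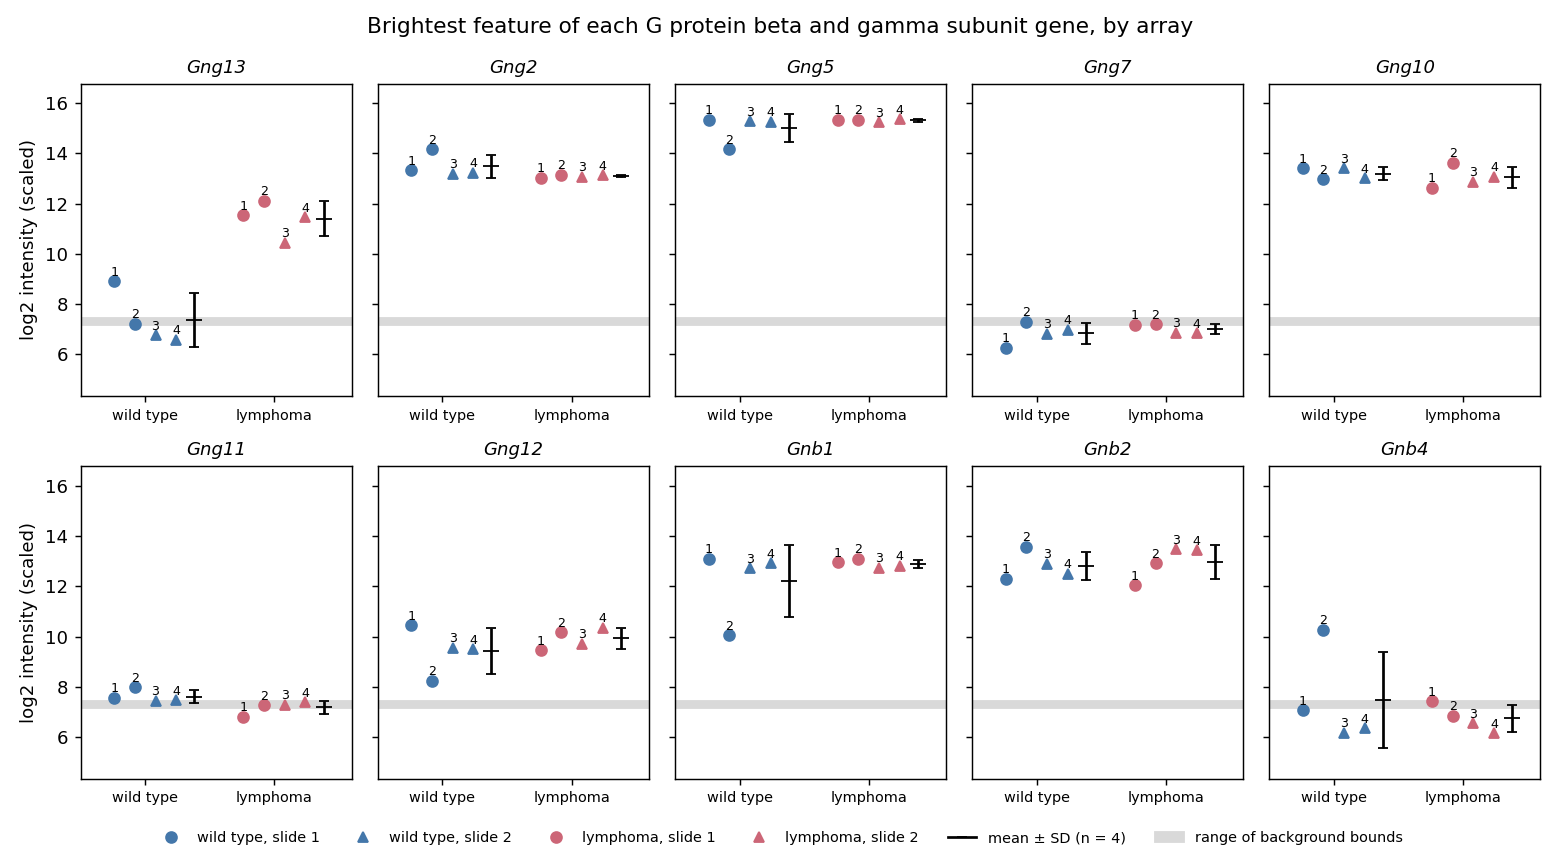
Log2 intensity (y axis) of the brightest feature of each of the 10 genes, with 1 point per array, numbered by mouse, and circles for slide 1 and triangles for slide 2. Bars give the mean ± SD of 4 arrays and the grey band the range of background bounds. Only Gng13 separates the groups widely, and wild type 2 is the highest control for Gng2, Gng7, Gng11, Gnb2 and Gnb4 and the lowest for Gng5, Gng10, Gng12 and Gnb1.

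Beta subunits fold into a propeller that holds the gamma subunit at its base. Gnb1, the beta subunit found in most tissues, had 4 features. The brightest read 13.08, 10.06, 12.72 and 12.92 in wild type and 12.96, 13.10, 12.74 and 12.82 in lymphoma. All arrays but wild type 2 lay within a narrow range, and the difference of 0.71 ± 0.55 became -0.01 without that array. The next 2 features differed by 0.45 ± 0.29 and 0.41 ± 0.25. In the first of these wild type 2 was again the lowest control, at 11.1, but less far from the others. In the second, wild type 2, 3 and 4 lay together, at 11.46, 11.56 and 11.44, and wild type 1 was apart, at 12.36. Without wild type 1 that difference was 0.63. The dimmest feature, at 9.20, 8.75, 10.02 and 9.90 in wild type and 8.53, 8.87, 9.89 and 10.12 in lymphoma, followed the slide rather than the group.

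Gnb2, a second widespread beta subunit, read 12.30, 13.57, 12.90 and 12.50 in wild type and 12.03, 12.91, 13.47 and 13.44 in lymphoma. The groups overlapped, and the difference was 0.15 ± 0.36. Like the second Gng5 feature it was lower in lymphoma by the mean on slide 1 (difference -0.47) and higher on slide 2 (0.76). On slide 1 the groups overlapped, and wild type 2 was the highest array. Gnb4, a beta subunit of more restricted expression, was near background. Its brightest feature was above background in wild type 2, at 10.27, and in lymphoma 1, at 7.42, and spanned 6.15 to 7.07 on the other 6 arrays. The other 2 Gnb4 features were above background in 2 controls and in no lymphoma array, and the 3 differences ran from -0.72 to -0.29. Without wild type 2 the brightest feature differed by 0.21.

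**Figure D3:**
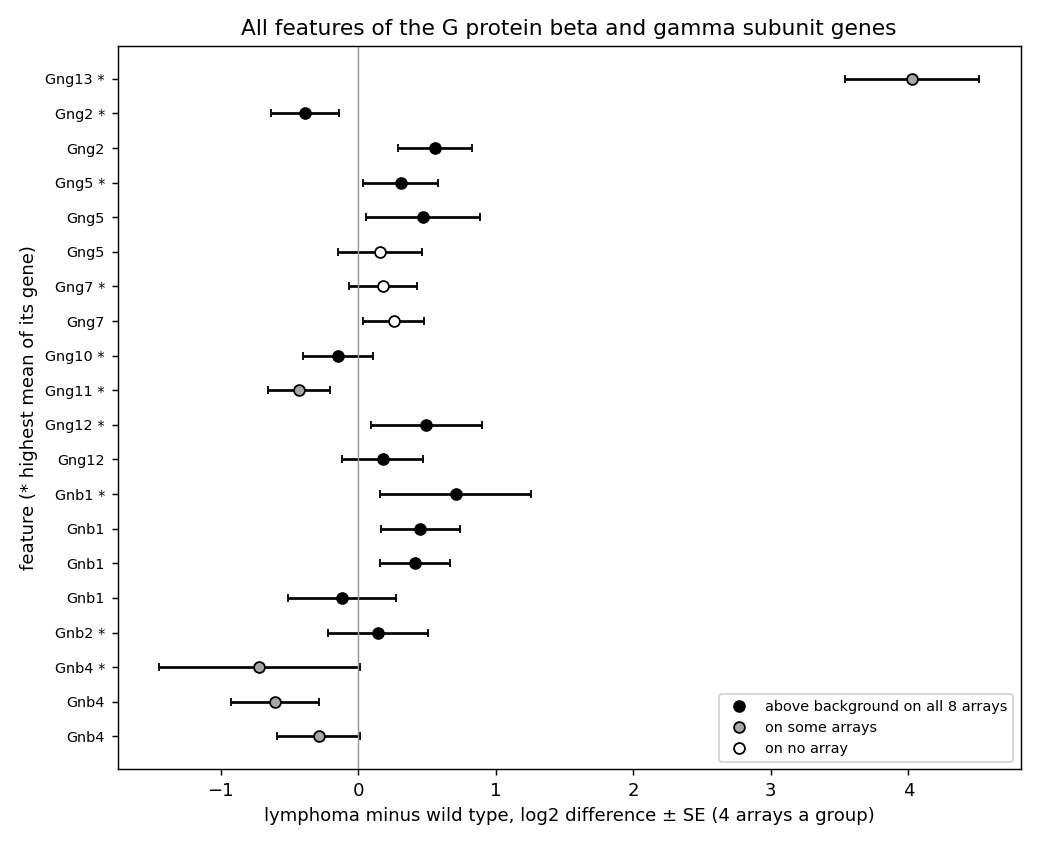
Log2 difference between lymphoma and wild type (x axis, ± SE, 4 arrays a group) for each of the 20 features of the 10 genes (y axis), with a star at the brightest feature of each gene. Fill shows on how many arrays a feature was above background. The Gng13 feature lies at 4.03 and the other 19 between -0.72 and 0.71.

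By their brightest features 6 of the 10 genes were higher and 4 lower in lymphoma, with a median of 0.16, while the median of all genes was 0.06 and 56.7% of them were higher. The groups did not overlap for 3 of the 10, namely Gng13, Gng2 and Gng11, where this held for 9.99% of all genes. At the level of features 1 of 20 passed the threshold, against 1.65% of all features. Among the 6 genes with several features, 2 had features of opposite sign, Gng2 and Gnb1. Of the 20 features 12 were above background on every array and 3 on none.

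The slide and the interaction of group and slide were not used to choose the genes, and both were tested in limma over the same 33709 features. Between the slides 2 features passed (0.00593%), and neither belonged to the family. The dimmest Gnb1 feature was 1.15 ± 0.21 higher on slide 2 (adjusted p 0.351 in limma), with means of 8.84 on slide 1 and 9.98 on slide 2. For the interaction 0 features passed (0%), with 2552 at an unadjusted p under 0.05 and 2 genes called with trend and robust settings. The lymphoma difference of the second Gng5 feature was 2.40 ± 0.46 larger on slide 2 than on slide 1 (adjusted p 0.284 in limma), and that of Gnb2 1.22 ± 0.64 larger (adjusted p 0.693). Without wild type 1, 205 features passed for the interaction, 3 of them of the family, the brightest features of Gnb1 (-3.01, adjusted p 0.0435) and Gnb4 (3.22, adjusted p 0.0475) and the second of Gng5 (2.83, adjusted p 0.0435). In that fit wild type 2, which lay apart for Gnb1 and Gnb4, is the only control on slide 1 and is assumed to vary like the other arrays, so these p values rest on 1 array. For Gng13 the interaction was 0.51 ± 0.79 (adjusted p 0.898) and for Gnb3 0.04 ± 0.63 (adjusted p 0.989).

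**Figure D4:**
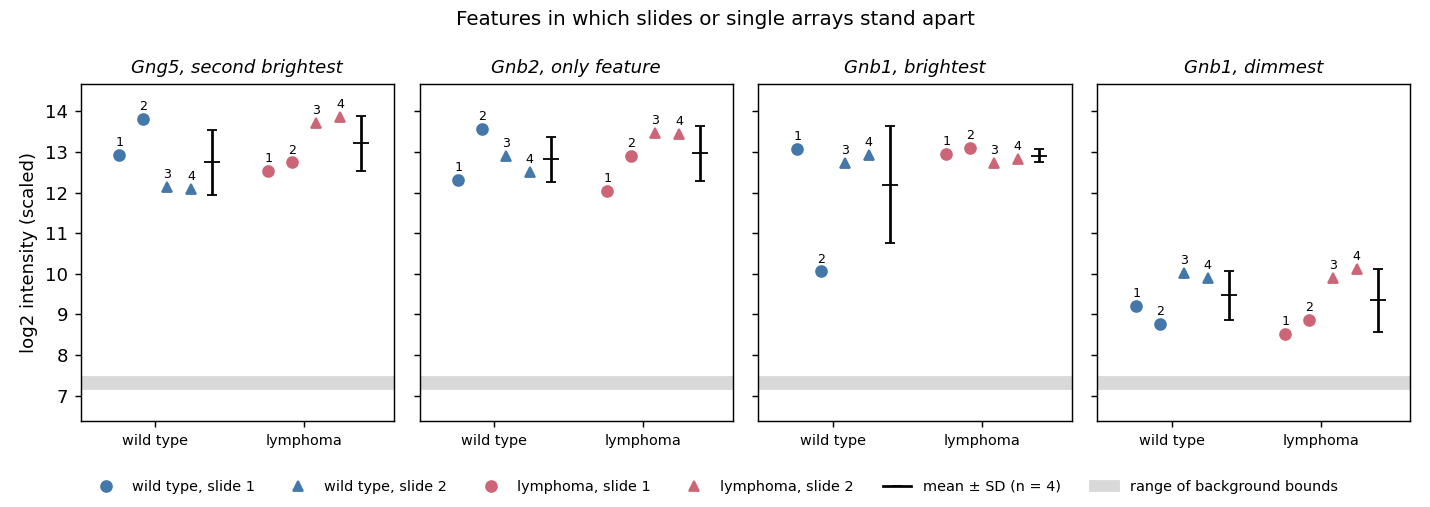
Log2 intensity (y axis) of 4 features, with 1 point per array numbered by mouse, circles for slide 1 and triangles for slide 2. Bars give the mean ± SD of 4 arrays and the grey band the range of background bounds. The mean differences of the second Gng5 feature and of Gnb2 have opposite signs on the slides, but for Gnb2 the groups overlap on slide 1. Wild type 2 lies apart for the brightest Gnb1 feature, and the dimmest Gnb1 feature is higher on slide 2 in both groups.

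The other genes of G protein signalling were taken from lists. Of the 7 other beta and gamma subunit genes measured, Gnb3 rose and none fell, with a median of 0.12. The remaining 6 were looked at after their values were seen. Of these, Gnb5, Gngt1, Gng4 and Gng8 were at background on all 8 arrays. Gngt2, a gamma subunit of cone photoreceptors that was above background on every array, differed by -0.05 ± 0.22 (adjusted p 0.941 in limma). Of 15 alpha subunit genes none passed, with a median of -0.06. The largest difference among them was that of Gnat2, an alpha subunit of cone photoreceptors, at 0.83 ± 0.27 (adjusted p 0.173), which was above background in no control and in 3 lymphomas. Named after their values were seen, the Gi family genes Gnai2 and Gnai3, whose products serve chemokine receptors, differed by -0.26 ± 0.22 and 0.42 ± 0.43. The Gnai3 difference was -0.74 within slide 1 and 1.59 within slide 2, where it passed (interaction 2.33 ± 0.45, adjusted p 0.284 in limma). Gnat3, the gustducin gene of taste cells, was on the list but was not measured, as no feature was listed under its symbol alone.

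Of 24 genes for beta-gamma effectors and the kinases that beta-gamma recruits, 1 fell and none rose, with a median of 0.12. Grk3, a receptor kinase brought to the membrane by beta-gamma, read 8.80, 9.29, 9.55 and 9.80 in wild type and 7.99, 8.52, 7.88 and 8.07 in lymphoma. The groups did not overlap by this feature, and Grk3 was 2.37-fold lower (log2 difference -1.24 ± 0.26, adjusted p 0.0379 in limma). The call ended when any array other than wild type 1 was left out (adjusted p 0.0549 to 0.129), and with the mean of its 3 features, which differed by -0.44 (adjusted p 0.29). The other 2 Grk3 features, which differed by -0.05 and -0.03, were at or near background, above it on 4 arrays and on none, and could not show such a fall. Prex1, a Rac activator that responds to beta-gamma and was picked out after its values were seen, lay at 10.63 ± 0.37 in wild type and 9.63 ± 0.12 in lymphoma (adjusted p 0.0551), and it passed in 7 of 20 alternatives, with adjusted p values from 0.0156 to 0.708 in limma. Leaving out any array but wild type 1 gave 0.0712 to 0.165. The next genes were also named after their values were seen. Pik3cg, the catalytic subunit of phosphoinositide 3-kinase gamma, and its regulatory partner Pik3r6 differed by -1.13 ± 0.35 and -1.04 ± 0.30 (adjusted p 0.14 and 0.124), and the other partner, Pik3r5, by 0.22 ± 0.30. Plcb2, the phospholipase C that beta-gamma drives in taste cells and leukocytes, differed by -0.65 ± 0.21 (adjusted p 0.163). The adenylyl cyclase genes Adcy9 and Adcy7 went the other way, by 0.83 ± 0.25 and 0.85 ± 0.39 (adjusted p 0.139 and 0.347 in limma). The second brightest Adcy7 feature differed by 1.00 ± 0.27 without overlap of the groups (adjusted p 0.101 in limma). Of the 24 genes 15 were higher in lymphoma. Of 15 genes for the assembly, lipid modification and turnover of beta-gamma none passed, with a median of 0.00. Pdcl, a chaperone of beta-gamma assembly, had the largest difference among them, 1.29 ± 0.50 (adjusted p 0.252), with 11.63 in wild type 1 and 8.90 to 9.16 in the other controls. Without wild type 1 Pdcl passed, at 1.94.

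**Figure D5:**
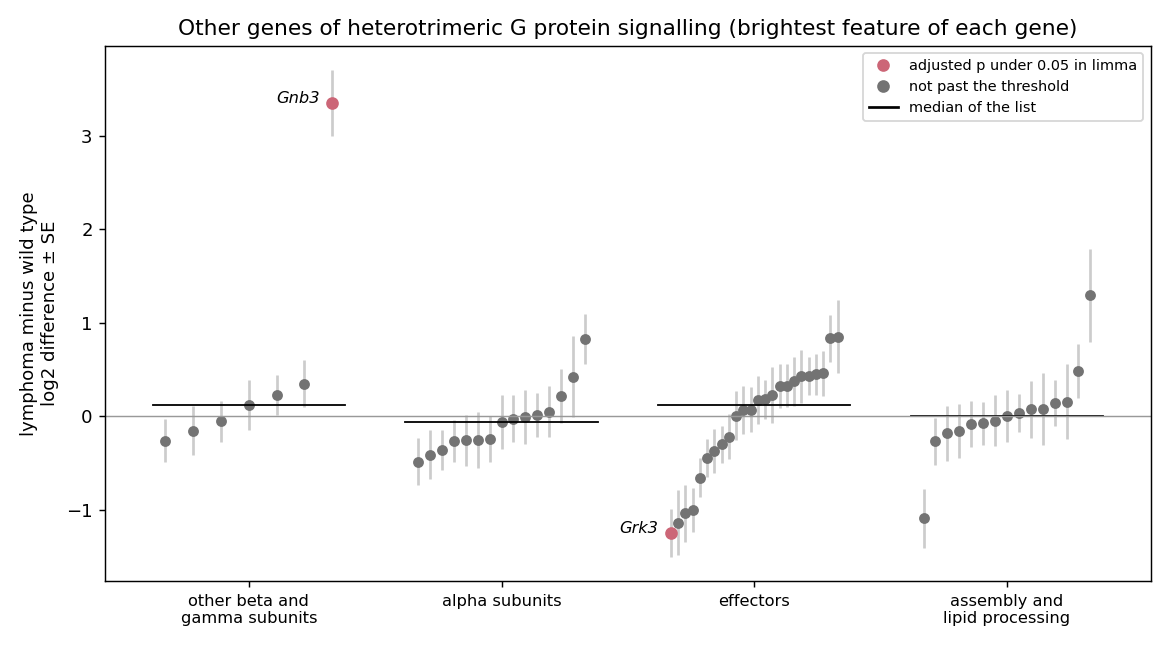
Log2 difference between lymphoma and wild type (y axis, ± SE, 4 arrays a group) for the genes of 4 lists, ordered by size within each list. Coloured points have an adjusted p under 0.05 in limma, and black lines are list medians. Gnb3 lies at 3.34 and Grk3 at -1.24, and the medians lie between -0.06 and 0.12.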

How the data were processed

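The values that the authors deposited are log2 intensities, with 45220 features on 8 Cy3 arrays, each made from 0.5 µg of RNA per the labels. The sources used here do not name a scanner, a background correction or a normalization. Platform annotation listed 33709 features with a gene, 33653 of them with 1 symbol and 56 with several, which were not named. Identifiers of 33517 matched RefSeq genes of GRCm38.p6, the source of names, gene order and promoters, and 0 symbols changed.

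The 75th percentiles of the arrays differed by 0.215, and each array was set to its own. A gene is represented by its brightest feature, by the mean of 8 arrays. Differences between groups were fitted with limma (version 3.58.1, R version 4.3.3), lmFit and eBayes, with group as the only term and two-sided Benjamini-Hochberg adjustment over all listed features. The fit was also run on simulated arrays with normal noise, large added differences and no outlying array or slide effect. That run checks the code, and not how the fit does with arrays like these. A call is an adjusted p under 0.05. A feature with at least 80% of the highest intensity of its array, on the linear scale, is near the top of the range.

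The genes and lists were chosen with earlier results of these data known. All genes of the family are named, and each pathway list names its called genes or, with none, the gene with the largest difference. Exceptions are marked as named after their values were seen. The 5 nearest genes by profile are given for Gng13 and Gng11, the family's largest rise and largest fall among genes whose groups do not overlap. The labels call the mice separate samples and say no more of them, so p values set a group difference against the spread between these arrays.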

Additional observations from a re-analysis of the deposited data

Results flagged for a closer look

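In 50 groups of 4 arrays, over the features of the family and 5 pathway genes, 6 held an array far from the other 3 by Dixon's ratio of gap to range at the 95% critical value. Chance flags about 1 group in 20. Wild type 2 was apart in 3 of them, the brightest features of Gng2 (14.17 with the next control at 13.33, ratio 0.857), Gng5 (14.17 against 15.25, ratio 0.919) and Gnb1 (10.06 against 12.72, ratio 0.880). Wild type 1 was apart for the third Gnb1 feature (12.36 against 11.56, ratio 0.874) and for Pdcl (11.63 against 9.16, ratio 0.906). Lymphoma 3 was apart for the brightest Gng5 feature (15.24 against 15.34, ratio 0.944), in a group with an SD of 0.06.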

How the results depend on the processing

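The difference of Gng13 lay between 3.76 and 4.54 in all 20 alternatives. As this contrast chose the gene, that range is a description, and its calls are not counted. Gnb3 kept its call in 19 of 20, with within slide 1 the exception (3.32, adjusted p 0.708). Values without each array in turn ran from 74 (lymphoma 4) to 1556 (wild type 1) genes and from 84 to 2317 features called, from 0 to 3 effector genes, from 0 to 2 assembly genes (2 without wild type 1), from 0 to 2 genes for the slide and from 0 to 144 genes for the interaction. Array weights gave 1441 genes, 2128 features, 4 effector genes, 1 assembly gene and 2 genes for the slide, against 398, 557, 1, 0 and 1. Within slide 1 there were 0 genes and 0 features, and 0 in the family, the other subunits and the effectors. Within slide 2 there were 1288 genes, 1949 features, 1 alpha subunit gene (Gnai3), 4 effector genes and 1 assembly gene. Effector genes numbered 2 with the values as deposited, with arrays set to their median, with quantile normalization and without the dimmer 50% of features. The interaction held 2 genes with the values as deposited, with quantile normalization and with trend and robust settings, and 1 with the mean of all features. The replicate block gave 526 genes and 1 assembly gene (Gpsm1). Same-numbered arrays correlated at 0.18, -0.04, 0.13 and -0.02 in their deviations from group means, so the numbers were not taken as pairs. The fits within a slide or without an array rest on fewer arrays, and the cause of the other shifts was not tested. Without the dimmer features Gng7 and Gnb4 have no value, and the feature count does not apply to the mean of all features.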
